A study of Mus musculus with 150 samples.

Results

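Genes that mark alveolar type 2 cells, the surfactant-making cells of the gas-exchange surface, were followed across whole lungs of male mice that inhaled styrene or air. The 9 genes listed are the surfactant protein genes Sftpa1, Sftpb, Sftpc and Sftpd, the lamellar body genes Abca3, Lamp3 and Napsa, the phosphate transporter gene Slc34a2 and the transcription factor gene Etv5. Probe sets of a gene's own were found for 7 of the 9, among 17097 genes that have one, and all 7 were among the 15695 genes tested. Sftpb and Lamp3 have none in the annotation used and were not analysed here. Of several probe sets of a gene, the one with the brightest average on the 150 arrays was used.

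Alveolar type 2 cells make surfactant, a film of phospholipids and proteins that lowers surface tension in the air spaces. Lipids are pumped into lamellar bodies by ABCA3, the small hydrophobic proteins SP-B and SP-C are cut from larger precursors by proteases that include napsin A, and both are secreted together. SP-A and SP-D are collectins that coat microbes and take part in clearing surfactant, much of which alveolar macrophages take up. NKX2-1 drives many of these genes, and the same cells renew the alveolar lining and can give rise to lung tumours.

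Each of the 150 arrays held RNA of 1 lung, in 31 groups of 2 to 10 mice set by kind of mouse, dose and week. Styrene, a volatile building block of plastics, was inhaled at 120 ppm by 79 mice, and 71 mice breathed air, for 26, 52, 78 or 104 weeks. Outbred CD-1 mice gave 42 arrays. The other 3 kinds had a C57Bl/6 background and are called C57BL/6 here. They were 38 CYP2F2(-/-) mice carrying a transgene labelled 2F1,SA13,2B6 (TG, promoter not given in the sources used here), 39 CYP2F2(-/-) mice (KO) and 31 wild-type mice (WT). Ages are given only as adult, and no WT air group of 26 weeks was analysed here. The label on treatment speaks of 1 or 4 weeks of exposure, which differs from the week on each sample, used here. A tumour note in 10 animals means that tumours or lesions were seen in the animal, while tumour tissue was not taken apart from the lung. Plate numbers are not in the labels and were inferred from well labels that repeat across samples. Most arrays up to 78 weeks shared plate 1. In the 104-week groups, plate 4 held the styrene arrays and plate 3 the air arrays, so dose and plate cannot be told apart there. A pair of styrene arrays from KO mice and a pair from TG mice carry the same wells, so 1 pair lay on each of these plates, and the labels do not say which. At 78 weeks all styrene arrays of KO and TG mice and 4 of 5 of WT mice lay on plate 2 and their air arrays on plate 1, so styrene differences of these mice at 78 weeks rest on the term fitted for plate 2.

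Cyp2f2, the gene deleted in KO and TG mice, had levels from 11.80 to 12.40 in TG arrays, from 11.69 to 12.55 in KO arrays and from 12.95 to 13.53 in WT arrays. CD-1 arrays ran from 12.07 to 13.54, with the lowest in the tumour-labelled air mouse of 104 weeks numbered 3. That array stands apart from its group in several markers (B cell marker mean 11.08), and comparisons that hold it are given with and without it for the members called. All levels are log2 intensities, so a difference of 1 is a doubling. Levels of different probe sets are not on one scale and are compared only within a gene. In whole lung, fewer alveolar type 2 cells and less RNA per cell cannot be told apart.

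The promoters of 3 members with differences over weeks, described below, are printed. Each is the 250 bases before the gene's start as RefSeq gives it on GRCm38.p6, from 5′ to 3′ on the gene's strand. The first lies at chr14:41131538-41131787 on the plus strand, the second at chr5:53049103-53049352 on the plus strand and the third at chr16:22439571-22439820 on the minus strand. Capitals mark TCAAG or its reverse complement CTTGA, the core that NKX2-1 is known to bind.

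Sftpa1: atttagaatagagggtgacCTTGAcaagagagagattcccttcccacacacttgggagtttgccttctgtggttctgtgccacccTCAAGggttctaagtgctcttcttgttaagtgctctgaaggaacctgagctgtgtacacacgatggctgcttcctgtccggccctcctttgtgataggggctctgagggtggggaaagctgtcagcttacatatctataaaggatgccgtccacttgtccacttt
Slc34a2: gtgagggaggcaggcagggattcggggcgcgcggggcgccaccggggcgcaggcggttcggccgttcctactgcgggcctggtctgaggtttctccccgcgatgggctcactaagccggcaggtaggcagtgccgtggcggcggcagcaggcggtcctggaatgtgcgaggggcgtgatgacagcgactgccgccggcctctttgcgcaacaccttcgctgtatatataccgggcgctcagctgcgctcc
Etv5: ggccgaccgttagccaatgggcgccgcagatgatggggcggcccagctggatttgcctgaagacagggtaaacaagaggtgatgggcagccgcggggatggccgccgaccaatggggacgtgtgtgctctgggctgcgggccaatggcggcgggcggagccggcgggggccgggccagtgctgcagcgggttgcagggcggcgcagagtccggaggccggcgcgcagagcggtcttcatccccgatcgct

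The Sftpa1 window holds the core 2 times, counting both strands, and the Slc34a2 and Etv5 windows hold it 0 times. Of 32851 promoter windows of this length, 35.9% hold it at least 1 time. TATAAA, searched on the gene's strand alone, stands in the Sftpa1 window and in 7.59% of all windows. GGAAGT, a longer string that holds the GGAA core of ETS factors such as ETV5, was also searched on either strand. GGAAGT is in none of the 3, against 19.7% of all windows. It occurs 1 time in the window before another start of Etv5, at chr16:22438369-22438618 on the minus strand. Matches to GGAA alone, which does occur in the Sftpa1 and Slc34a2 windows, were not counted. The window of Abca3, which also differed over weeks, is not printed and holds the NKX2-1 core 0 times. Windows of Sftpc, Sftpd and Napsa are not printed here. A match describes letters only.

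The 7 members differed in how far they varied. Sftpc, the precursor of the hydrophobic protein SP-C, averaged 13.80 and stayed between 13.65 and 13.93 on every array. The spread of Sftpc within groups (SD 0.04) was smaller than that of all other genes tested (0% had a smaller one). Its average level ranked 3 among the genes tested, and the same value, 13.8057, recurred on arrays of every strain. How far a probe set this bright can still respond was not tested, which limits what its small spread means. Sftpa1, one of the collectins, ran from 12.60 to 13.43, and Slc34a2, the type IIb sodium-phosphate cotransporter of the apical membrane, from 11.84 to 12.79. Sftpd, the other collectin, ran from 11.75 to 13.17, and Abca3 from 10.42 to 11.62. Etv5, an ETS factor that acts downstream of FGF signalling and maintains alveolar type 2 identity in mice, ran from 8.44 to 10.41. Napsa had the widest range, from 6.48 to 9.41.

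**Figure D1:**
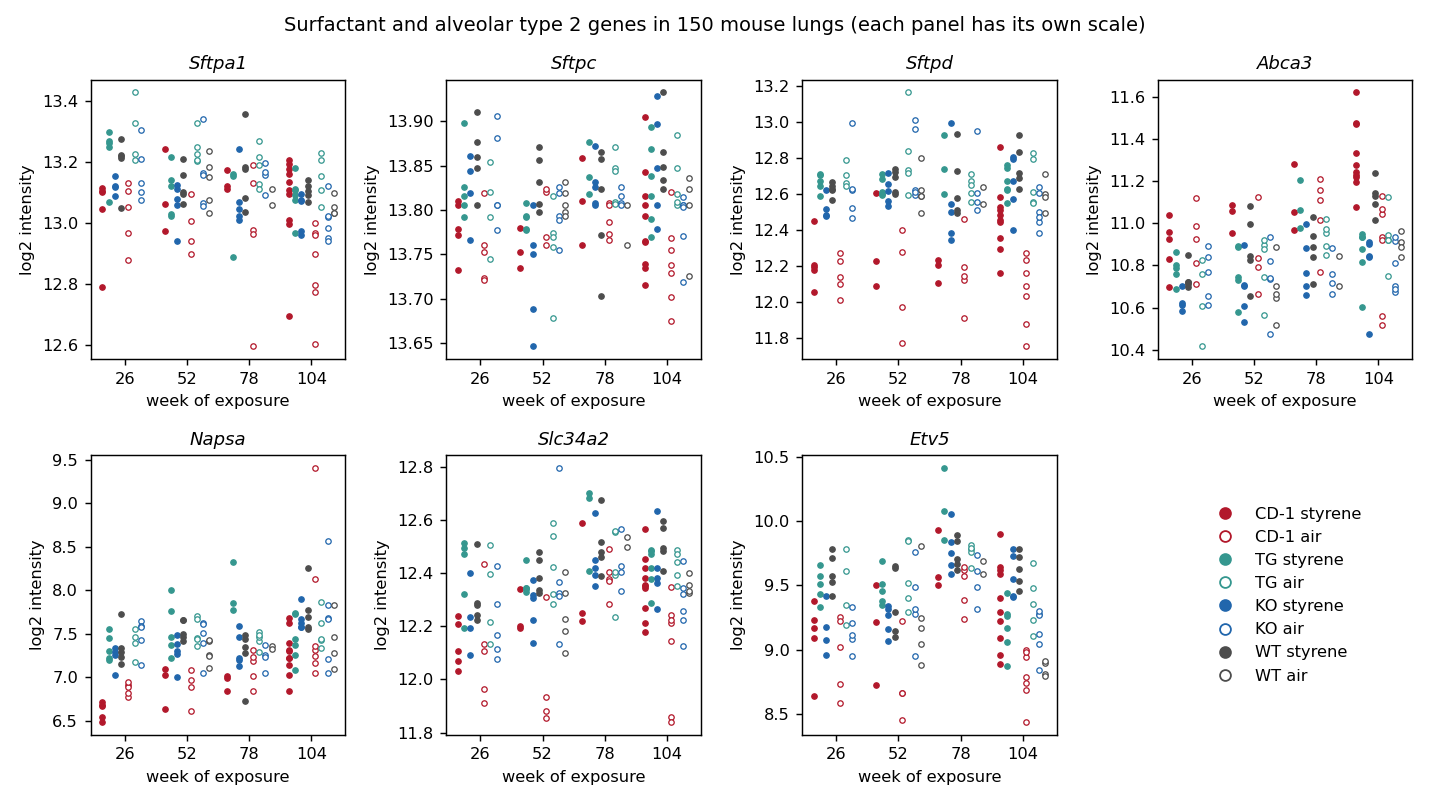
Levels (log2 intensity) of the 7 measured genes on each of 150 arrays against week of exposure, with styrene mice as filled points left of air mice as open points, and colours for CD-1, TG, KO and WT. Sftpc stays between 13.65 and 13.93, Sftpd is low in CD-1 mice, Etv5 is high at 78 weeks, and 1 CD-1 air array of 104 weeks reaches 9.41 in Napsa.

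Up to 78 weeks none of the 7 members differed between styrene and air mice past the test, with the plate 2 term fitted. This held in 11 comparisons of single weeks, tested with limma over all genes and Benjamini-Hochberg adjustment at 0.05. Of all genes tested, 0.65%, 0.0701% and 0.121% were called in CD-1 mice at 26, 52 and 78 weeks, 0%, 0.0127% and 0.191% in TG mice, and 0%, 0.0127% and 0% in KO mice. In WT mice 0.401% were called at 52 and 0.00637% at 78 weeks. Of the 77 member tests, 6 had an unadjusted p under 0.05, and the smallest adjusted p was 0.398. It also held for the weekly differences averaged within each strain, where 0.835% of genes were called in CD-1 mice, 0% in TG mice, 0% in KO mice and 0.0382% in WT mice.

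The intervals show what sizes these data leave room for, for Sftpc only as far as its bright probe set can respond. For Sftpc the averaged differences lay between -0.01 and 0.04, and the 95% intervals of the 4 strains together spanned -0.06 to 0.10. For Abca3, the lamellar body lipid pump, they lay between -0.06 and 0.13, with intervals from -0.19 to 0.30. Those of Slc34a2 lay between -0.03 and 0.08. Sftpa1 lay between -0.11 in TG and 0.09 in CD-1 mice. Sftpd had its lowest average in KO mice (-0.20) and its highest in CD-1 mice (0.10). Etv5 was above 0 in all 4 strains, from 0.02 in KO to 0.24 in CD-1 mice (smallest adjusted p = 0.27). The interval of that CD-1 average ran from 0.06 to 0.42. Napsa was the least precise, with intervals from -0.42 to 0.37. Napsa in TG mice at 78 weeks was at 0.35 (adjusted p = 0.459) with the plate 2 term, at 0.55 (0.0267) without a plate term and at -0.11 (0.917) in a fit of C57BL/6 arrays alone. No gene of the 5 lists of surfactant and alveolar type 2 biology described below was called in these comparisons either.

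At 104 weeks several members were higher in styrene than in air mice, on different plates, against large shares of all genes. In WT mice 2 of 7 members were called, both higher, while 48% of all genes tested were called and 29.6% were called higher. In KO mice 1 member was called higher, against 39.4% of genes called and 23.9% called higher. In CD-1 mice 5 were called higher and 1 lower, against 63.6% called, 42.8% higher and 20.7% lower. In TG mice 0 members and 0% of genes were called by limma, with 0 members and 980 genes at an unadjusted p under 0.05.

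Etv5 carried the largest of these differences. In WT mice its lowest, median and highest levels were 9.45, 9.63 and 9.78 in 5 styrene lungs, against 8.79, 8.85 and 8.91 in 4 air lungs. Every styrene lung lay above every air lung. The difference was 0.77 (SE 0.15, 1.71-fold, limma adjusted p = 1.79e-05). In KO mice the 5 styrene lungs had 9.73, 9.55, 9.78, 9.41 and 9.42, and the 6 air lungs had 8.84, 9.19 and 9.30 as lowest, median and highest. These groups did not overlap either, and the difference was 0.44 (SE 0.14, adjusted p = 0.00794). The share of all genes whose groups did not overlap was not counted, here or below. In CD-1 mice the levels were 8.89, 9.35 and 9.90 in 10 styrene lungs, against 8.44, 8.78 and 9.00 in 7 air lungs. All 10 styrene lungs lay above the air mean, and the difference was 0.57 (SE 0.11, adjusted p = 6.01e-06), or 0.51 (9.28e-05) without the air array that stands apart. TG mice went the other way without passing the test, with 8.87, 9.22 and 9.44 in 6 styrene lungs, against 9.11, 9.36 and 9.67 in 5 air lungs (-0.19, adjusted p = 0.879).

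The styrene effect on Etv5 at 104 weeks differed between TG mice and each other strain when that difference was itself tested. It was larger in WT than in TG mice by 0.96 (SE 0.20, adjusted p = 0.000144, 37.3% of genes called) and larger in KO than in TG mice by 0.63 (SE 0.19, adjusted p = 0.0122, 25.1% called). TG minus CD-1 was -0.76 (adjusted p = 0.000285, 46% called). The pairs without TG mice were not called. WT minus KO was 0.33 (adjusted p = 0.691), WT minus CD-1 0.21 (0.753) and KO minus CD-1 -0.13 (0.806). These differences between strains were not refitted with plate 4 terms. With terms for plates 2 and 4 and the TG pair placed on plate 3, the Etv5 differences at 104 weeks were 0.60 in WT mice (adjusted p = 0.088), 0.27 in KO mice (0.527) and 0.40 in CD-1 mice (0.191). With the KO pair placed there they were 0.50 (0.535), 0.27 (0.527) and 0.29 (0.565), so none was called in either fit. In these fits a single pair of arrays separates dose from plate. Styrene effects averaged over weeks, 104 weeks included, were also compared between strains. Those of WT minus KO, TG minus KO and CD-1 minus WT differed for 0 members, against 0.0892%, 0% and 0.0701% of genes.

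**Figure D2:**
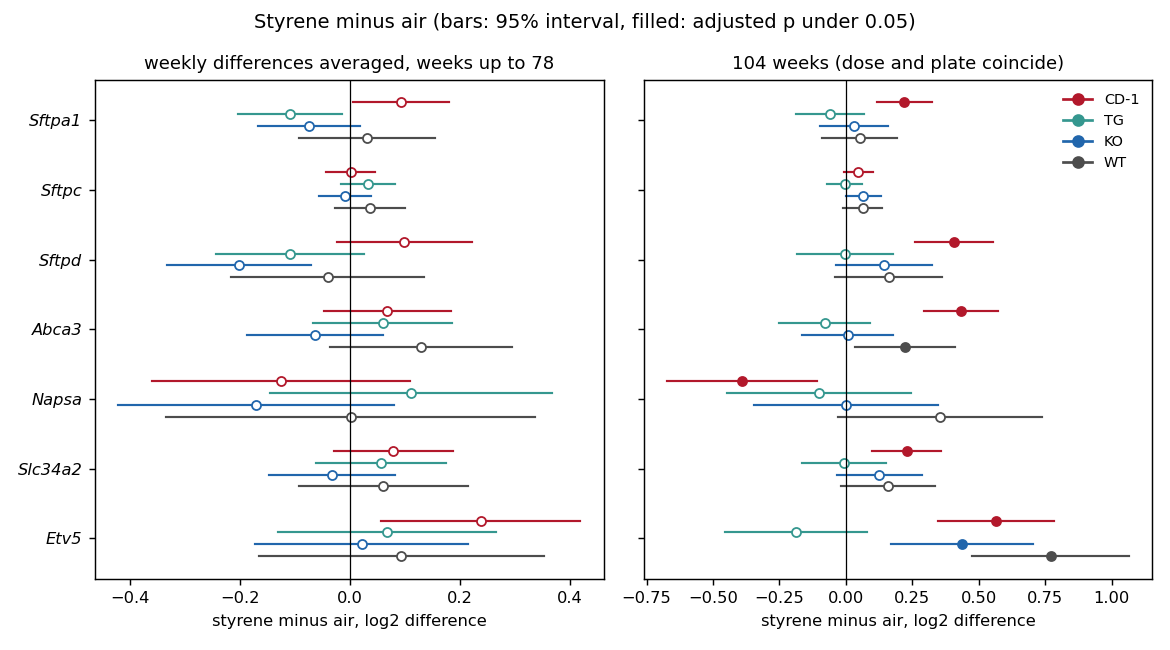
Styrene minus air (log2 difference, x axis) for the 7 genes and 4 strains, with the weekly differences averaged over weeks up to 78 on the left and 104 weeks on the right. Points are limma estimates, bars 95% intervals, and filled points have an adjusted p under 0.05. All points on the left are open, and Etv5 is filled at 104 weeks in CD-1, KO and WT mice.

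In CD-1 mice at 104 weeks, Sftpd, Abca3, Sftpa1 and Slc34a2 were called higher beside Etv5, and Sftpc was not (0.05, adjusted p = 0.124). Sftpd had 12.16, 12.47 and 12.86 as lowest, median and highest in the 10 styrene lungs, against 11.75, 12.09 and 12.27 in the 7 air lungs. Each styrene lung exceeded the air mean, although the ranges overlapped, and the difference was 0.41 (SE 0.08, 1.33-fold, adjusted p = 1.82e-06). Without the air array that stands apart the difference was 0.36 (adjusted p = 4.6e-05). Abca3 was higher by 0.43 (SE 0.07, adjusted p = 1.25e-07), and by 0.37 (6.5e-06) without that array, but its 3 probe sets disagreed. The other 2 gave 0.61 (adjusted p = 2.65e-09) and -0.62 (adjusted p = 0.000397), and the mean of all 3 gave 0.14 (adjusted p = 0.1). The probe set at -0.62 was dim, averaging 4.80 (3.85 to 5.69), where array medians ran from 3.95 to 4.26. The one used averaged 10.88 and the one at 0.61 averaged 9.12. Where both other probe sets of Abca3 are given, the dim one stands second. Sftpa1 was higher by 0.22 (SE 0.05, adjusted p = 0.000196), and by 0.18 (0.00317) without that array, while its other probe set gave 0.03 (adjusted p = 0.772). Slc34a2 was higher by 0.23 (SE 0.07, adjusted p = 0.00166), by 0.19 (0.0142) without that array, and by 0.08 (adjusted p = 0.417) without tumour-labelled mice. With terms for plates 2 and 4 and the TG pair on plate 3, Sftpd (0.44, adjusted p = 0.0336) and Abca3 (0.57, 0.00583) stayed called in CD-1 mice. With the KO pair there no member was called, with Sftpd at 0.14 (0.717) and Abca3 at 0.51 (0.0805). The only other call in WT mice was Abca3 at 0.22 (adjusted p = 0.0483), with 11.02, 11.13 and 11.24 in styrene against 10.84, 10.90 and 10.96 in air lungs. That call was lost when any array but that of styrene mouse 5 was left out (adjusted p from 0.0523 to 0.115). The other 2 probe sets gave 0.32 (adjusted p = 0.0218) and -0.63 (adjusted p = 0.0114).

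Genes around the members were counted in 5 lists. In CD-1 mice at 104 weeks, surfactant lipid synthesis had 10 genes higher and 0 lower of 19 tested (median difference 0.21, all genes 0.16). They included Elovl1, which lengthens fatty acids (0.52), Scap, which escorts the SREBP lipid regulators (0.44), and Chpt1, a choline phosphotransferase (0.41). Alveolar type 2 transcription had 10 higher and 2 lower of 17 (median 0.38), with Cebpa at 0.87, Elf3 at 1.08, Foxa2 at 0.67 and Nfib at -1.0. Surfactant processing and lamellar body genes had 7 higher and 3 lower of 14 (median 0.16), among them Vamp8, a secretory vesicle SNARE (0.43), and Lyst, a lysosomal trafficking regulator (-0.69). Other alveolar type 2 genes had 6 higher and 4 lower of 16 (median 0.24), with Cldn3 at 0.99 and Cd36 at -1.23. Genes of surfactant clearance by macrophages had 1 higher and 2 lower of 9 (median 0.12). With terms for plates 2 and 4 the 5 lists had 0 genes called in CD-1 mice with the KO pair on plate 3. With the TG pair there they had 3 lipid synthesis, 3 transcription, 2 processing, 2 other type 2 and 1 clearance gene called.

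In WT mice the same lists had 8 higher and 1 lower of 19 for lipid synthesis (median 0.18, all genes 0.12), 5 and 3 of 17 for transcription, 4 and 6 of 14 for processing, 3 and 4 of 16 for other type 2 genes and 0 and 2 of 9 for clearance. Scap (0.63), Elovl1 (0.62), Cebpa (0.68), Foxa2 (0.65) and Elf3 (0.85) were higher and Nfib lower (-0.99). In KO mice 1 lipid synthesis gene was called, Scap (0.36), with 2 higher and 3 lower in transcription, 4 and 4 in processing, 0 and 3 in other type 2 genes and 0 and 2 in clearance. Without tumour-labelled mice, lipid synthesis had 1 higher and 3 lower in KO mice, and clearance 0 and 1 in WT mice. Marker lists of other cells moved beside them in CD-1 mice, with 5 alveolar type 1 markers higher and 3 lower of 9, 3 club cell markers higher of 6, and 2 alveolar macrophage markers higher and 1 lower of 8. Their part in the result was not tested. In the CD-1 air group of 104 weeks the lowest club cell marker mean was 10.41 (group mean 11.60). The lowest alveolar type 1 marker mean there was 10.06 (group mean 11.01). Counts of listed genes and markers were not computed without CD-1 air mouse 3, here or in other comparisons.

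Sftpd was lower in CD-1 than in WT mice, in air and in styrene, and lower than in KO and TG mice in air. Among air mice of 52, 78 and 104 weeks its lowest, median and highest levels were 11.75, 12.13 and 12.46 in 16 CD-1 lungs, against 12.49, 12.59 and 12.80 in 11 WT lungs. No CD-1 lung reached any WT lung. The difference was -0.51 (SE 0.06, 1.43-fold lower in CD-1, adjusted p = 6.69e-11), or -0.50 (1.76e-10) without the CD-1 air mouse 3 of 104 weeks. In all, 3 of 7 members were called lower, against 17.4% of genes called and 10.5% called lower. Week by week Sftpd differed by -0.58 at 52, -0.43 at 78 and -0.54 at 104 weeks, and the groups overlapped at none of them. Members called, all lower, numbered 2 at 52 weeks (5.96% of genes called, 3.87% lower), 1 at 78 weeks (2.33% and 1.47%) and 2 at 104 weeks (11.6% and 6.8%). The 104-week calls were Sftpd and Sftpa1, and without CD-1 mouse 3 Sftpd was at -0.48 (adjusted p = 0.000142) and Sftpa1 lost its call (0.184).

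Styrene mice, which share no animal with the air mice, gave the same direction. Sftpd had 12.06, 12.30 and 12.86 in 21 CD-1 lungs, against 12.50, 12.66 and 12.94 in 20 WT lungs, so that the ranges overlapped, and 1 CD-1 lung exceeded the WT mean. The difference was -0.35 (SE 0.05, adjusted p = 5.42e-08), with 5 members called lower and 1 higher, against 17.2% of genes called, 9.24% lower and 8% higher. Over all time points, CD-1 minus KO was -0.54 in air (adjusted p = 6.4e-18) and CD-1 minus TG was -0.60 (adjusted p = 1.66e-20). Against KO mice 5 members were called lower and 1 higher (23.6% of genes called, 13.2% lower and 10.4% higher), and against TG mice 5 lower (27.6% called, 15.1% lower). Without CD-1 mouse 3 these counts were the same, with Sftpd at -0.52 and -0.59. These comparisons share the CD-1 arrays with each other and with the WT comparison. One probe set measures Sftpd, and CD-1 sequence differences under its probes were not tested.

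**Figure D3:**
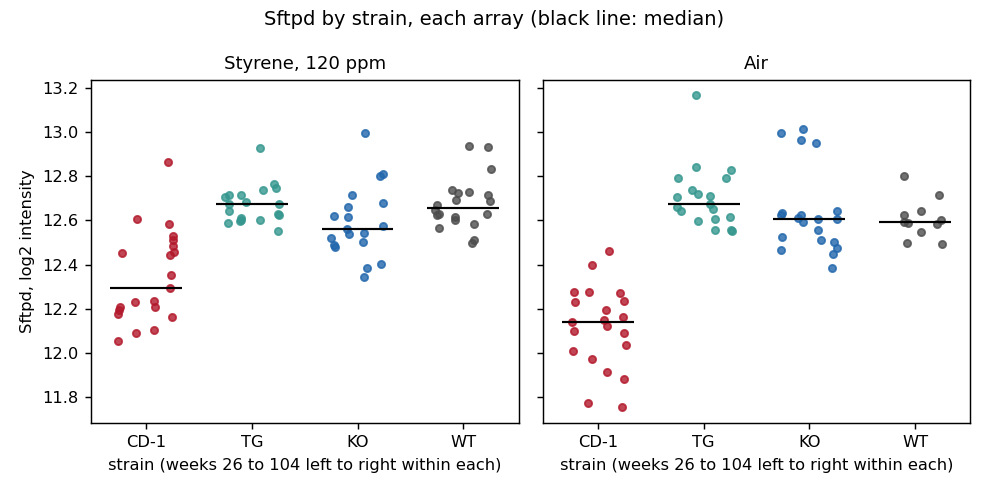
Sftpd level (log2 intensity) of each array by strain, with CD-1 left of TG, KO and WT, styrene mice in the left panel and air mice in the right, weeks running from 26 to 104 within a strain and black lines at medians. In air, CD-1 lungs lie between 11.75 and 12.46, below all TG and WT lungs.

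In air the other members differed less between CD-1 and WT mice. Slc34a2 was lower in air at -0.21 (SE 0.06, adjusted p = 0.0041), or -0.19 (0.00806) without CD-1 mouse 3 of 104 weeks, and in styrene mice at -0.16 (SE 0.05, adjusted p = 0.00883). Sftpa1 was lower in air at -0.15 (adjusted p = 0.00817), or -0.14 (0.0163) without that mouse, with -0.05 (adjusted p = 0.757) by its other probe set. In styrene mice Sftpa1 was at -0.06 (adjusted p = 0.292). Napsa had 6.48, 7.02 and 7.68 in CD-1 lungs, against 6.73, 7.47 and 8.25 in WT lungs, in styrene mice. It was lower there at -0.51 (SE 0.10, adjusted p = 3.71e-05), and in air it was at -0.14 (adjusted p = 0.478), and at -0.24 (0.0881) without that mouse. Etv5 differed by -0.25 in styrene mice (adjusted p = 0.0119, and 0.0722 without CD-1 styrene mouse 1 of 52 weeks) and by -0.23 in air mice (adjusted p = 0.0715). The air difference passed without WT mouse 3 (0.0409) or without CD-1 mouse 2 (0.0186) of 52 weeks. Sftpc was at -0.06 in styrene mice (adjusted p = 0.0138), against a spread within groups of 0.04. In air Abca3 was at 0.14 (adjusted p = 0.0968), and was called higher without that mouse (0.16, 0.0465) or without tumour-labelled mice (0.18, 0.0222). Abca3 was higher in CD-1 styrene mice by 0.19 (adjusted p = 0.0032), a call that its other probe sets did not share (0.08 and 0.00, adjusted p = 0.45 and 0.993).

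In the surrounding lists, other alveolar type 2 genes had 0 higher and 6 lower of 16 in CD-1 air mice (median -0.24, all genes -0.01), and 0 and 6 in CD-1 styrene mice (median -0.16). Chil1, a chitinase-like protein of type 2 cells, was at -1.01 in air and -1.08 in styrene mice, and Acoxl, an acyl-CoA oxidase-like gene, at -0.66 and -0.46. Lipid synthesis had 1 higher and 3 lower of 19 in air and 1 and 5 in styrene mice, among them Elovl1 (-0.43 and -0.39) and Lpin1 (-0.61 and -0.30). Processing genes had 0 and 4 of 14 in air and 1 and 3 in styrene mice, with Vamp8 at -0.32 and -0.14. Transcription genes had 1 and 4 of 17 in air, with Elf5 at -0.66, and 1 and 0 in styrene mice. Clearance by macrophages had 3 higher and 0 lower of 9 in air and 6 and 1 in styrene mice. Abcg1, a sterol exporter whose loss makes macrophages fill with lipid in mice, was at 0.47 and 0.80.

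Within the C57BL/6 background no member was called between KO and WT air mice (0.319% of genes called) or between TG and KO air mice (0.344%). Sftpd differed by 0.04 between KO and WT mice (95% interval -0.09 to 0.16). Etv5 had 9.11, 9.61 and 9.85 in 19 TG lungs, against 8.84, 9.28 and 9.76 in 20 KO lungs. Most TG lungs, 16 of 19, lay above the KO mean, with a difference of 0.26 (SE 0.07, adjusted p = 0.137). Fitted on C57BL/6 arrays alone, the adjusted p of Etv5 was 0.0348.

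Sftpd also followed alveolar macrophage markers from lung to lung. Over 150 arrays its deviations from group means correlated with those of the mean of 8 such markers at r = 0.62, the highest among 8 marker lists for this gene. These arrays share dissection, plate and normalisation. The correlation was 0.38 in CD-1, 0.72 in TG, 0.80 in KO and 0.72 in WT mice. In 7 arrays the marker mean lay above 9, a level set after the values were seen, and those 7 were also the 7 arrays highest in Sftpd of all 150.

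Their marker means ran from 9.01 to 9.89 and their Sftpd levels from 12.94 to 13.17. The other 143 arrays reached 8.92 and 12.93, so the boundary in Sftpd was narrow. None of the 7 was a CD-1 lung. They were a TG air lung of 52 weeks (Sftpd 13.17, marker mean 9.89), a WT styrene lung of 78 weeks (12.94 and 9.40), and 5 KO lungs from 26 to 78 weeks in either dose. Chil3, a chitinase-like protein that alveolar macrophages secrete in mice and 1 of the 8 markers that picked these arrays, was between 12.59 and 12.99 in them and at most 12.48 elsewhere. Sftpc stayed between 13.77 and 13.91 and Etv5 between 9.11 and 10.05 in the same 7.

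The macrophage marker mean averaged 8.19 in CD-1, 7.85 in TG, 8.00 in KO and 7.74 in WT mice, so CD-1 mice had the highest marker mean and the lowest Sftpd. Between CD-1 and WT air mice 3 of 8 markers were higher and 0 lower, with Krt79 at 0.97 and Siglecf at 0.66. None of the 7 arrays enters the CD-1 minus WT comparison in air. The part of macrophage markers in the Sftpd difference was not tested.

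**Figure D4:**
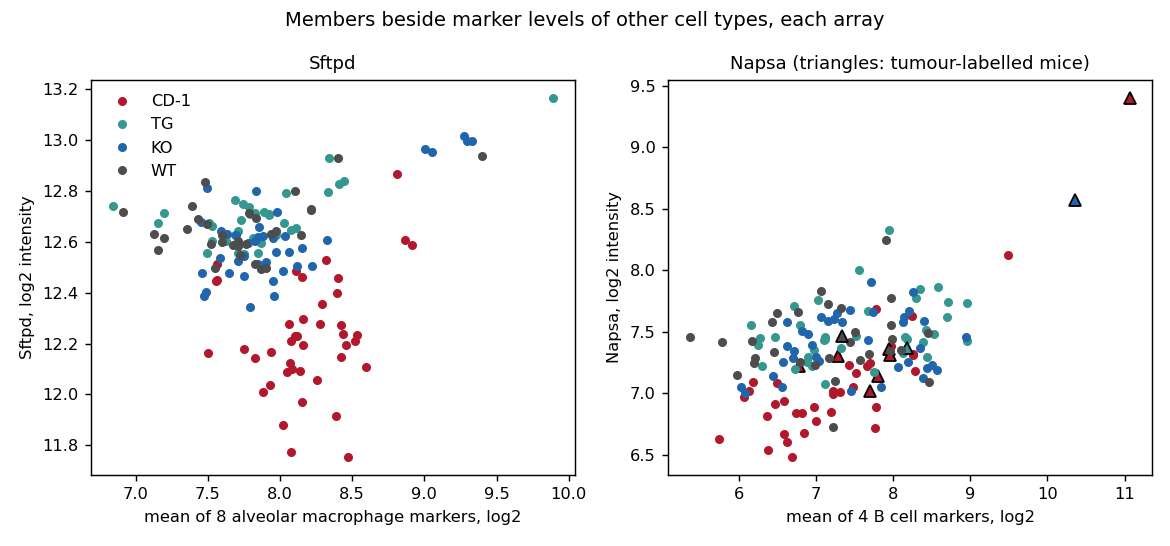
Left, Sftpd level against the mean of 8 alveolar macrophage markers, and right, Napsa level against the mean of 4 B cell markers, all in log2 intensity, 1 point per array, coloured by strain, with triangles for tumour-labelled mice. The 7 lungs above 9 on the left are C57BL/6 and the highest in Sftpd, and the 2 arrays highest on the right are tumour-labelled air mice of 104 weeks.

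Over the weeks of the study, Etv5 and Slc34a2 were higher at 78 than at 26 weeks. In air mice of CD-1, TG and KO, all on plate 1, Etv5 had 9.24, 9.63 and 9.81 as lowest, median and highest in 14 lungs of 78 weeks, against 8.59, 9.20 and 9.79 in 14 lungs of 26 weeks. All 14 later lungs lay above the 26-week mean, although the ranges overlapped. The difference was 0.40 (SE 0.09, 1.32-fold, adjusted p = 4.58e-05). By strain it was 0.53 in CD-1 (adjusted p = 0.00376), 0.27 in TG (0.194) and 0.40 in KO mice (0.046). In all, 3 of 7 members were called higher, against 52.7% of genes called and 20.8% called higher.

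Slc34a2 had 12.24, 12.40 and 12.57 at 78 weeks, against 11.91, 12.15 and 12.50 at 26 weeks, with 14 of 14 later lungs above the earlier mean. It was higher by 0.20 (SE 0.05, adjusted p = 0.000458). Abca3 was higher by 0.14 (adjusted p = 0.0221), which its other probe sets did not share (-0.02 and 0.19, adjusted p = 0.796 and 0.174), and the call was lost without TG mouse 3 of 26 weeks (adjusted p = 0.0708). Sftpa1, Sftpc, Sftpd and Napsa differed by -0.06, 0.01, -0.01 and 0.01, none of them called. No member was called between 52 and 26 weeks (2.39% of genes called). All 4 B cell markers were higher at 78 weeks (median 1.16), and 3 of 6 fibroblast markers were lower.

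Styrene mice, over CD-1, TG, KO and WT, gave Etv5 levels of 9.50, 9.79 and 10.41 in 16 lungs of 78 weeks, against 8.64, 9.42 and 9.78 in 19 lungs of 26 weeks. All 16 lay above the 26-week mean, and the difference was 0.44 (SE 0.12, adjusted p = 0.00533). Slc34a2 was higher by 0.20 (SE 0.07, adjusted p = 0.0356), a call lost in 6 of 35 fits that left out 1 array (adjusted p from 0.0502 to 0.131). Those arrays were WT mouse 1, TG mouse 3 and CD-1 mouse 3 of 78 weeks, and TG mouse 3, KO mouse 1 and CD-1 mouse 2 of 26 weeks. These 2 members were the ones called, against 24.3% of genes called and 12.7% called higher. Many of the styrene arrays of 78 weeks lay on plate 2, for which a term was fitted.

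The mean of Etv5 in air mice at 26, 52, 78 and 104 weeks was 8.96, 8.75, 9.49 and 8.79 in CD-1, 9.48, 9.58, 9.76 and 9.37 in TG, and 9.14, 9.36, 9.54 and 9.14 in KO mice. In styrene mice it was 9.10, 9.15, 9.67 and 9.36 in CD-1, 9.50, 9.48, 10.12 and 9.18 in TG, 9.16, 9.23, 9.78 and 9.58 in KO, and 9.60, 9.36, 9.75 and 9.62 in WT mice. In every one of these series the 78-week mean was the highest. The air means of 52, 78 and 104 weeks in WT mice, 9.23, 9.64 and 8.85, had it there too.

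**Figure D5:**
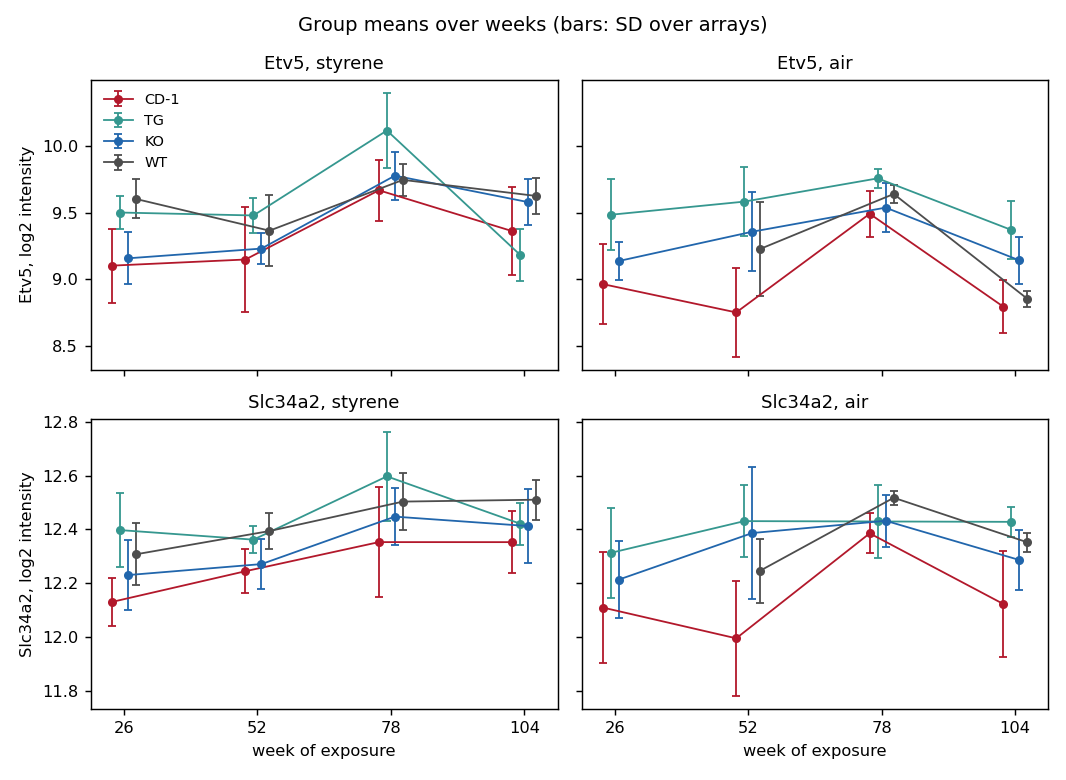
Group means of Etv5 (top) and Slc34a2 (bottom), log2 intensity, against week of exposure, with styrene mice on the left and air mice on the right. Bars are SD over arrays of a group and colours are strains. Etv5 is highest at 78 weeks in every strain and dose, reaching 10.12 in TG styrene mice.

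Between 104 and 78 weeks in air, where week and plate cannot be told apart, 2 members were called lower and 1 higher, against 29.7% of genes called, 16.9% lower and 12.8% higher. Etv5 had 8.44, 8.99 and 9.67 in 22 lungs of 104 weeks, against 9.24, 9.63 and 9.81 in 16 lungs of 78 weeks, over all 4 strains. Only 1 of the 22 lay above the 78-week mean, and the difference was -0.57 (SE 0.08, adjusted p = 3.56e-09). Without CD-1 mouse 3 of 104 weeks it was -0.55 (7.71e-09). Slc34a2 was lower, at -0.14 (adjusted p = 0.0124), at -0.13 (0.0202) without that mouse and at -0.11 (adjusted p = 0.0774) without tumour-labelled mice. Napsa was higher by 0.29 (adjusted p = 0.0196), by 0.22 (0.0335) without that mouse and by 0.17 (adjusted p = 0.103) without tumour-labelled mice. Without WT mouse 2 of 78 weeks the adjusted p of Napsa was 0.0533. Sftpa1 was at -0.08 (adjusted p = 0.0862), and at -0.11 (0.0174) without CD-1 mouse 2 of 78 weeks. Its other probe set gave -0.37 (1.65e-06) and the mean of both -0.22 (1.46e-05).

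Between 104 and 26 weeks in air, with the same limit, 1 member was called higher and 1 lower, against 48.6% of genes called, 18.8% higher and 29.9% lower. Sftpa1 had 12.60, 12.99 and 13.23 in 18 lungs of 104 weeks, against 12.88, 13.13 and 13.43 in 14 lungs of 26 weeks, with 3 of 18 above the earlier mean. It was lower, at -0.16 (SE 0.04, adjusted p = 0.000372), or -0.14 (0.000996) without CD-1 mouse 3, and its other probe set gave -0.28 (adjusted p = 0.000181). Napsa was higher by 0.38 (SE 0.11, adjusted p = 0.00164), and by 0.28 (0.00459) without that mouse. Etv5 was at -0.09 (adjusted p = 0.35). Slc34a2 was at 0.07 (adjusted p = 0.245), and was called at 0.11 (0.0419) without tumour-labelled mice. Abca3 was at 0.09 (adjusted p = 0.122), and was called at 0.15 (0.0106) without those mice, while its other probe sets gave -0.37 (4.26e-07) and 0.40 (0.00235).

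The lists around them changed in both directions. Between 78 and 26 weeks in air, transcription genes had 4 higher and 3 lower of 17 (median -0.04, all genes -0.07), with Fgfr2, the receptor of the FGF signal to type 2 cells, at 0.31 and Elf3 at -0.82. Lipid synthesis had 3 and 3 of 19, processing 4 and 1 of 14, other type 2 genes 4 and 6 of 16, and clearance 3 and 1 of 9. Between 104 and 26 weeks other type 2 genes had 0 higher and 8 lower of 16 (median -0.17, all genes -0.04), among them Cldn18, a tight junction claudin (-0.65), and Lyz1, a lysozyme (-0.32). Nkx2-1 was at -0.49 and Lpcat1, which remodels surfactant phosphatidylcholine, at 0.57. Lipid synthesis had 1 and 6 there, transcription 1 and 3, processing 2 and 2, and clearance 6 and 1. Alveolar type 1 markers had 0 higher and 7 lower of 9 in that comparison, and B cell markers 4 higher of 4 (median 1.32). Their part in the members' values was not tested.

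Napsa, the gene of the aspartic protease napsin A, correlated more strongly with B cell markers than with any other member over all 150 arrays. Its deviations correlated with those of the other 6 members at r between -0.21 and 0.23, while Sftpd and Slc34a2 reached 0.60, Sftpa1 and Sftpd 0.56, and Slc34a2 and Etv5 0.56 (150 arrays sharing plates and normalisation). With the mean of 4 B cell markers the correlation of Napsa was 0.60. The highest Napsa levels were 9.41 in the CD-1 air mouse of 104 weeks numbered 3 and 8.57 in a KO air mouse of 104 weeks. Both were tumour-labelled, and both had the highest B cell means, 11.08 and 10.35. Without the first the correlation was 0.51, and without both 0.45. Correlations of Napsa with the other members were not computed without these arrays. Napsa ran against other lists, with r = -0.51 for alveolar type 1, -0.48 for ciliated, -0.43 for club, -0.39 for endothelial and -0.36 for fibroblast markers. Without both arrays these were -0.30, -0.34, -0.22, -0.10 and -0.058. The genes most like Napsa over 150 arrays were led by Fgd2 (r = 0.72), Recql5 (0.69), Niban3 (0.68), 1810046K07Rik (0.68) and Tnfrsf13b, a receptor of B cells (0.68), and without both arrays by Arhgap17 (0.59), Fgd2 (0.56) and Irf8 (0.53).

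In CD-1 mice at 104 weeks Napsa had 6.83, 7.26 and 7.68 in 10 styrene lungs, against 7.05, 7.31 and 9.41 in 7 air lungs. It was called lower in styrene mice (-0.39, SE 0.14, adjusted p = 0.0138). Without air mouse 3 the difference was -0.10 (adjusted p = 0.48), and without tumour-labelled mice -0.03 (adjusted p = 0.883). With all these mice Ms4a1, a B cell marker, was at -2.29, and 1 of 4 B cell markers was called. Those B cell values were not computed without air mouse 3. How much of the Napsa signal comes from B cells was not tested.

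Among CD-1 mice of 104 weeks, members were compared by tumour label in a model with dose. Between 7 labelled and 10 other mice limma called 0 members and 0% of genes, with 0 members and 1451 genes at an unadjusted p under 0.05. Sftpa1 had 12.60, 13.01 and 13.19 in labelled mice, against 12.77, 13.00 and 13.20 in the others (-0.13, 95% interval -0.30 to 0.03). Abca3 differed by -0.16 (-0.36 to 0.04), Etv5 by -0.02 (-0.30 to 0.27) and Napsa by 0.27 (-0.25 to 0.78). Without air mouse 3, a labelled mouse, Sftpa1 was at -0.10, Abca3 at -0.09, Etv5 at 0.07 and Napsa at -0.12, with 0 members called. Whole lung was assayed, so how much tumour a sample held is not known.

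The genes whose deviations were most like the mean of the 7 members over 150 arrays were Mlc1 (r = 0.70), Rbpjl (0.65), Dipk1b (0.64), Elovl1 (0.64), Sp5 (0.64), Itih4 (0.63), Npc2 (0.62), Sgpp2 (0.61), Renbp (0.61) and Fasn (0.60). Elovl1 and Fasn, the fatty acid synthase, belong to lipid synthesis, and NPC2 is a cholesterol carrier found in lamellar bodies. With single members the correlation of Mlc1 ran from 0.04 to 0.68. These arrays too share plates and normalisation.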

How the data were processed

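Total RNA of whole lungs of 150 male mice was measured on HT MG-430 PM arrays (Affymetrix), 1 per mouse. The deposited values are log2 intensities of 45037 probe sets, made by the authors with RMA, per the submitters' processing notes. Partek is named there too, with no version. RMA summarises probes per set, and compression at both ends of the scale can shrink differences. Array medians ran from 3.95 to 4.26, and the number of arrays limits precision.

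Groups came from each sample's labels, plates from repeated well labels. Probe sets annotated to 1 gene were used (28898), per gene the one with the highest mean. Genes above the 30th percentile of an array in at least 3 arrays were tested. Group means and a plate 2 term were fitted with limma 3.58.1 in R 4.3.3 (figures with matplotlib 3.10.9), adjusted by Benjamini-Hochberg over 15695 genes at 0.05; every adjusted p is from this fit unless a setting is named. Averages over weeks weight weeks equally. Styrene minus air averaged within a strain leaves out 104 weeks, and comparisons of averaged styrene effects between strains include it. The 95% intervals are normal ones from the SE. Labels do not say whether mice shared litters or cages, and mice were treated as independent. Each p-value rests on a spread between mice that is pooled per gene over all groups fitted. For the tumour label those are the CD-1 mice of 104 weeks. Correlations use deviations from fitted means and carry no test. The fit was tested on simulated data. Named are the members, up to 4 called genes per list with the smallest p, and the 10 most like the members' mean; genes like Napsa alone, Chil3 and single markers were added after values were seen. The members and lists were chosen with earlier results of these data known. Promoters are from RefSeq (GRCm38.p6).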

Additional observations from a re-analysis of the deposited data

Results flagged for a closer look

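In 11 of 189 tests, each of 1 member in 1 group, 1 array lay far from the rest of its group. Chance alone gives about 1 in 20 tests, and tests of different members share the same arrays. Low arrays for Sftpa1 were a WT styrene lung of 26 weeks (13.05), a TG styrene lung of 26 weeks (13.07), a CD-1 styrene lung of 26 weeks (12.79) and a tumour-labelled CD-1 styrene lung of 104 weeks (12.69). High for Sftpa1 was a KO styrene lung of 78 weeks (13.24), which is among the 7 lungs highest in Sftpd. The WT styrene lung of 26 weeks that was low in Sftpa1 was high in Abca3 (10.85). A KO styrene lung of 104 weeks was low in Abca3 (10.48), and the same lung was high in Napsa (7.90). Napsa was low in a WT styrene lung of 78 weeks (6.73), the array of its group that lay on plate 1. Slc34a2 was high in a WT styrene lung of 26 weeks (12.51) and in a TG styrene lung of 52 weeks (12.45).

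Styrene effects on members were compared between strains at each week and between weeks within each strain, and 16 of 315 such differences, averages included, were called by limma. All involve 104 weeks, where dose and plate cannot be told apart. For Etv5 the effect of WT minus TG was 0.96 and that of KO minus TG 0.63. TG minus CD-1 gave -0.76 for Etv5, -0.51 for Abca3, -0.41 for Sftpd and -0.28 for Sftpa1 (46% of genes called), and KO minus CD-1 gave -0.42 for Abca3 (1.28% called). Without CD-1 air mouse 3 TG minus CD-1 gave -0.70, -0.45, -0.36 and -0.24, all called, and KO minus CD-1 gave -0.36 (adjusted p = 0.134). Within WT mice the Etv5 effect at 104 weeks exceeded that at 52 weeks by 0.63 and that at 78 weeks by 0.72 (31.3% and 24.2% called). Within KO mice the effects at 104 and 52 weeks differed by 0.56 for Etv5 and by 0.13 for Sftpc (25.4% called). Within CD-1 mice those at 104 and 26 weeks differed by 0.22 for Sftpa1, 0.39 for Sftpd, 0.46 for Abca3 and 0.44 for Etv5 (38.3% called), and those at 104 and 78 weeks by 0.39 for Abca3 (5.94% called). Without that mouse Sftpd (0.34) and Abca3 (0.40) stayed called against 26 weeks, Sftpa1 (adjusted p = 0.101) and Etv5 (0.0915) did not, and Abca3 was not called against 78 weeks (0.108).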

How the results depend on the processing

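Of 32 comparisons, 21 had no member called in the fit reported, under any of the 13 alternatives tried or with an array left out. Counts within 1.5 times of those reported are not listed, though members changed in some. Shares of all genes called are given for the fit reported only. Counts under alternatives or with an array left out have no such share beside them. In CD-1 mice at 104 weeks Napsa and Slc34a2 lost their calls without tumour-labelled mice, Napsa with CD-1 arrays alone (adjusted p = 0.0759), and Abca3 (0.1) and Sftpa1 (0.0597) with the mean of probe sets. That mean also lost Abca3 for 78 minus 26 weeks in air (0.132) and CD-1 minus WT in styrene (0.295), and Sftpa1 for CD-1 minus WT in air (0.175). Without tumour-labelled mice there were 4 for 104 minus 26 weeks in air, 1 for 104 minus 78 weeks in air and 1 for styrene at 104 weeks in WT mice. Without a plate term there were 4 for 78 minus 26 weeks in styrene mice and 1 for styrene in TG mice at 78 weeks (Napsa, 0.55, adjusted p = 0.0267). C57BL/6 arrays alone gave 1 for TG minus KO. With plate 2 and plate 4 terms, styrene at 104 weeks had 0 in KO and 0 in WT mice, and in CD-1 mice 2 with the TG pair on plate 3 and 0 with the KO pair there. Plate 4 terms with both pairs on 1 plate were not run, since wells would be filled 2 times. eBayes with trend and robust gave 2 in KO mice, and no filter and the mean of probe sets each gave 1 in WT mice at 104 weeks. Abca3 turned direction with another probe set, to -0.37 (104 minus 26 weeks in air), -0.022 (78 minus 26 weeks in air), 0.33 (104 minus 78 weeks in air), -0.62 (CD-1, 104 weeks) and -0.63 (WT, 104 weeks), and to -0.030 with the mean of probe sets (WT, 104 weeks). The values 0.33, -0.62 and -0.63 came from the dim probe set averaging 4.80, and -0.37 and -0.022 from the one averaging 9.12. The cause was not tested.

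With each of 139 arrays left out in turn, members called ranged from 2 to 4 for 104 minus 78 weeks in air, 2 to 3 for 78 minus 26 weeks in air, 1 to 2 in styrene mice, 3 to 4 for CD-1 minus WT in air, 5 to 6 in styrene mice and 1 to 2 for WT at 104 weeks, and were 5 in CD-1 at 104 weeks without air mouse 3, where Sftpd, Abca3, Sftpa1, Slc34a2 and Etv5 stayed called. Replicate numbers did not pair the animals over all groups (24 of 64 same-numbered pairs had a correlation over 0.1, median 0.03). In TG mice at 26 weeks all 4 pairs exceeded it (0.39 to 0.60), and 0 members were called there with the replicate block. With that block Etv5 in CD-1 minus WT air mice was at -0.24 (adjusted p = 0.0478). Comparisons among styrene mice, of single strains and weeks, without the arrays that stand apart and with plate 4 terms were chosen after seeing the data. Whether signal limits the bright Sftpc probe set was not tested.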
